A study of Homo sapiens with 12 samples.

Results

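Kinesins are motor proteins that walk along microtubules or shorten them, using energy from ATP. A subset of the family acts mainly in dividing cells, where its members push the spindle poles apart, move and align chromosomes, trim microtubule ends and build the midzone needed for cytokinesis. Transcripts of these mitotic kinesins are known to rise as cells pass through the G2 phase and mitosis and to be low in cells that have left the cell cycle. The 10 mitotic kinesin genes described here were KIF11, KIF14, KIF15, KIF18A, KIF20A, KIF23, KIF2C, KIF4A, KIFC1 and CENPE. They were taken by symbol from a table of 44659 genes, and 10 of the 10 had enough counts to be among the 15916 genes tested.

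RNA sequencing was performed on A375 cells, a human melanoma cell line, in 4 groups of 3 libraries. Control cells (CC) were given DMSO, the drug solvent, for 72 h. MAPKi-treated cells (TC) were given 500 nM of the BRAF inhibitor vemurafenib with 500 nM of the MEK inhibitor cobimetinib for 72 h, and both CC and TC were harvested on day 0 after that time. Persister cells (PC) had the same 72 h of MAPKi and then 2 days of drug-free medium, and recovered cells (RC) had 9 days of drug-free medium. The cells came from 1 line and were split when needed. No DMSO control of day 2 or day 9 was analysed here, so that the day of harvest and the group cannot be told apart for PC and RC. The labels give the RNA as cytoplasmic, while the methods of the study speak of total RNA, and ribosomal RNA was depleted. The labels do not say whether the 3 libraries of a group came from separate cultures, so that p-values measure the spread between these samples, which may be technical.

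Libraries held between 37773389 and 55567097 counts. The 8 melanocyte lineage markers, among them SOX10, were detected in every group and summed to 1660 to 1890 CPM (counts scaled to a common library size) in CC, 7090 to 10300 CPM in TC, 3500 to 5110 CPM in PC and 1530 to 1590 CPM in RC, although MLANA stayed at or below 1.94 CPM. DCT supplied most of the sum in TC (6450 ± 1320 CPM there, SD, n = 3, and 407 ± 60.9 CPM in CC), whereas S100B ran from 234 to 305 CPM in CC and from 128 to 149 CPM in TC. The 7 markers of other cell types summed to 0.571 to 1.06 CPM in CC, 0.336 to 0.777 CPM in TC, 2.26 to 2.78 CPM in PC, where the keratin KRT14 supplied most of the signal, and 0.435 to 0.886 CPM in RC. HBB was at 0 in the 12 libraries. The part of these markers in the results was not tested. ETV4, DUSP6 and SPRY4, which are transcriptional outputs of the MAPK pathway, were lower than in CC both in TC and in PC. Their log2 fold changes against CC were -6.49, -5.32 and -8.06 in TC and -7.07, -4.90 and -9.10 in PC. The highest adjusted p was 1.7e-06. Between PC and TC, ETV4 was called lower (adjusted p = 0.003), and DUSP6 and SPRY4 were not called (adjusted p of 0.58 and 0.16). Among the control libraries, CC replicate 2 had the highest level of 8 of the 8 kinesins other than KIF15 and KIFC1. The same held for most of their mitotic partners described below. The share of all tested genes with their highest control level in that library was not counted.

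Promoters of genes expressed in G2 and mitosis often carry a cell cycle homology region (CHR, letters TTTGAA or TTCGAA), bound by the DREAM and MuvB complexes, and CCAAT boxes, bound by NF-Y. Both motifs were searched on both strands in the RefSeq windows (GRCh38.p14) that run from 250 bases before to 50 bases after the start of each gene. No match of one motif overlapped a match of the other in the kinesin windows. A CHR was present in 7 of the 10 kinesin promoters and in 12.4% of the 16859 windows of tested genes. A CCAAT box was present in 7 of the 10 and in 34.6% of those windows. Both motifs were present in 6 of the 10 (KIF11, KIF14, KIF18A, KIF23, KIF4A and KIFC1) and in 4.94% of those windows. A CHR that began within 50 bases of the start was found in 6 of the 10 and in 3.61% of those windows, and the KIF23 match, at -55, lay just outside that distance.

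The 100 bases before the start are shown for 4 kinesins whose windows carry the motifs in different arrangements, with each motif in capitals (CCAAT appears as ATTGG, and TTTGAA as TTCAAA, where the match is on the other strand). KIF11 has 1 CCAAT box at -53 and a CHR at -28 (chr10:92593030-92593129, plus strand). KIF4A has the same order, with a CCAAT box at -58 and a CHR at -34 (chrX:70290004-70290103, plus strand). KIF18A has a CCAAT box at -45 and a CHR at -10 (chr11:28108157-28108256, minus strand). KIF20A has a pair of CCAAT boxes, at -94 and -67, and no CHR in its window (chr5:138179012-138179111, plus strand). The KIF11 and KIF20A windows lie inside the gene as GENCODE v44 draws it, but in no annotated exon. The 100 bases of KIF18A overlap an annotated exon by 9 bases.
KIF11: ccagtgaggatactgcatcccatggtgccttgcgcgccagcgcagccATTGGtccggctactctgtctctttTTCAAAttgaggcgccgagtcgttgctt
KIF4A: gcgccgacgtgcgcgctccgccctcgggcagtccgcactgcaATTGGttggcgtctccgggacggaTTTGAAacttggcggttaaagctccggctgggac
KIF18A: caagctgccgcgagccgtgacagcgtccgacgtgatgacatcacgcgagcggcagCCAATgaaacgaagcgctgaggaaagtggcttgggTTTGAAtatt
KIF20A: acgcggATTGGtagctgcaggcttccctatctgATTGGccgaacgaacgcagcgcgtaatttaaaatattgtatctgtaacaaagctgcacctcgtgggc

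The CCAAT box came before the CHR in 6 of the 6 promoters with both. In KIF14 and KIFC1 the CHR fell just after the start, at 2 and 5 bases. KIF15 had a CHR at -35 and no CCAAT box, and KIF2C and CENPE had neither set of letters in this window. For KIF23 and CENPE, all 100 bases before the RefSeq start lay within an annotated GENCODE v44 exon. The overlap with an exon was 73 bases for KIF15 and 19 bases for KIF2C. The positions, and the count of matches near the start, thus depend on the RefSeq start. A match of letters is a description and not a bound site, and occupancy of these promoters was not measured.

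**Figure D1:**
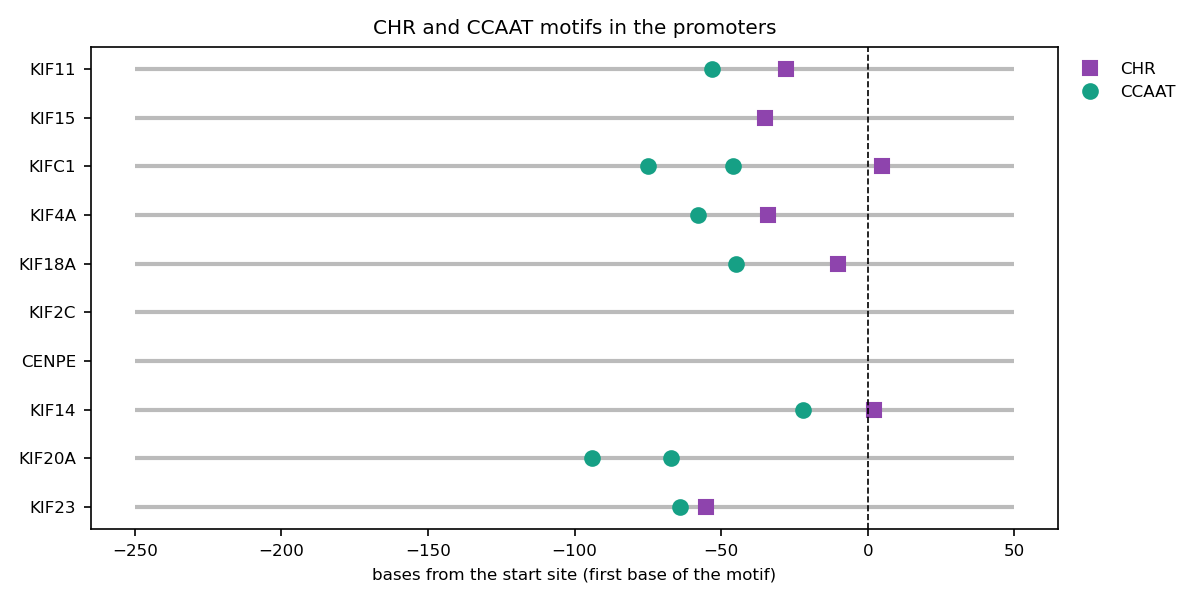
Positions of CHR (squares) and CCAAT (circles) matches in the promoter window of each kinesin, in bases from the start site on the horizontal axis, with grey lines for the searched window. A CHR lies within 50 bases of the start in KIF11, KIF14, KIF15, KIF18A, KIF4A and KIFC1, while KIF2C and CENPE have no match.

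The kinesins differed widely in abundance in control cells. Levels were compared between genes per kb of the canonical GENCODE v44 transcript, an annotation other than that used for counting. In CC, KIF2C stood highest at 62.8 ± 12.1 CPM per kb (SD, n = 3), followed by KIF20A at 35.7 ± 8.32 CPM per kb, KIF4A at 24.7 ± 3.98 CPM per kb and KIF23 at 24.2 ± 3.40 CPM per kb. KIF11 (16.9 ± 1.97 CPM per kb), CENPE (10.2 ± 1.89 CPM per kb), KIF14 (7.60 ± 0.854 CPM per kb) and KIF18A (6.74 ± 1.29 CPM per kb) came next. The CC libraries of KIF20A overlapped with those of KIF4A, and those of KIF4A with those of KIF23. Likewise CENPE overlapped with KIF14, and KIF14 with KIF18A. KIFC1 and KIF15 were the lowest, at 1.96 ± 2.59 and 0.833 ± 0.66 CPM per kb, with a spread close to or above their means. Both have further entries in the deposited table, described below, and the part of these in the low levels was not tested.

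All 10 kinesins were lower in TC than in CC. In the 3 CC libraries the 10 genes together held 719, 882 and 638 CPM, against 78.6, 71.2 and 65.7 CPM in TC, 193, 225 and 236 CPM in PC and 1180, 1230 and 1250 CPM in RC. The 4 groups did not overlap in this sum. Here and for the single genes below, the share of all tested genes whose groups do not overlap was not counted. These are bulk samples, so that fewer cells in mitosis and less of these transcripts per cell cannot be told apart. TC, PC and RC were set against the same CC libraries, so that their values are given side by side.

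**Figure D2:**
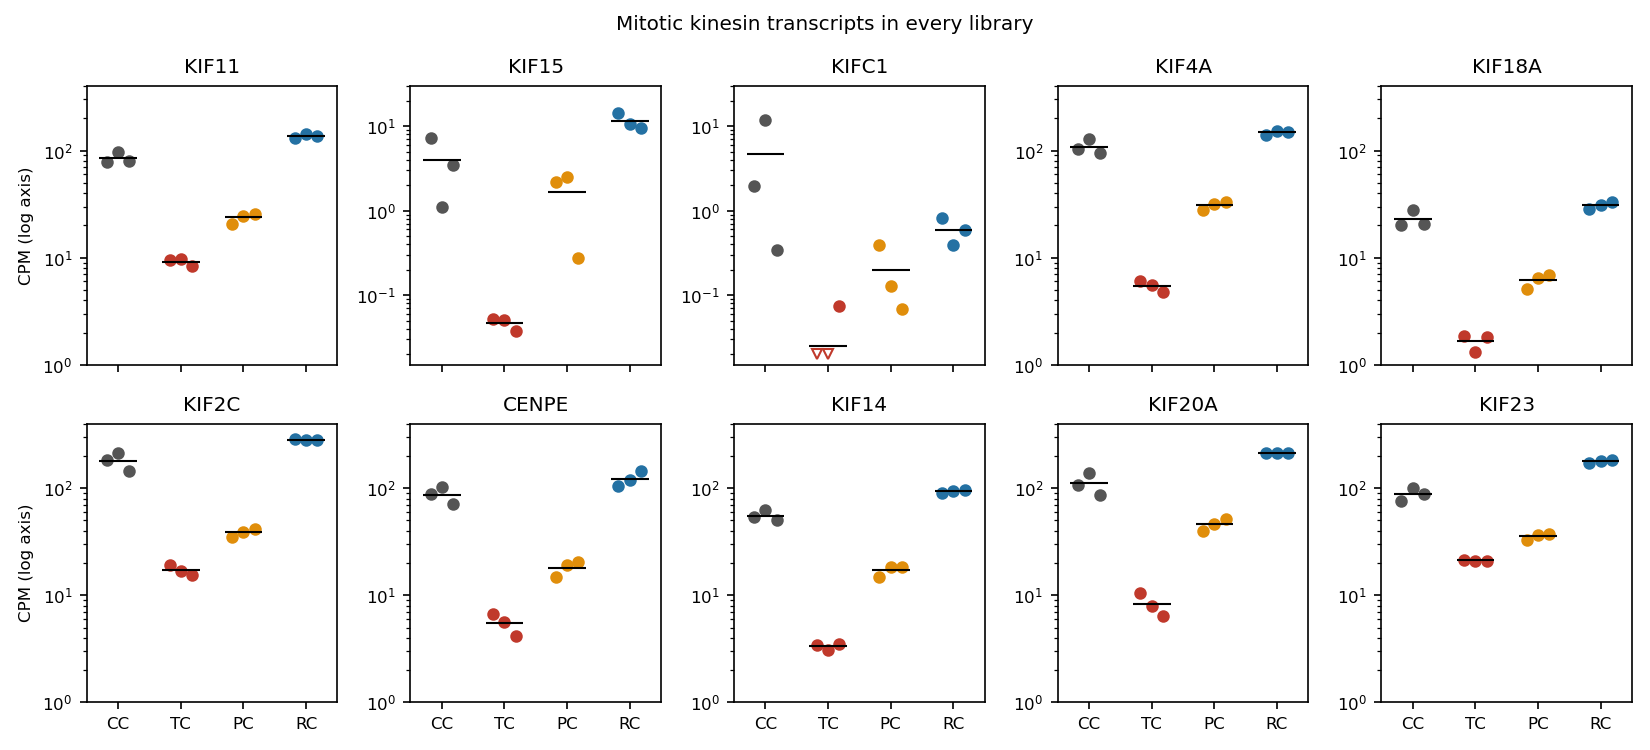
Level of each mitotic kinesin in every library as CPM on a log axis, for CC, TC, PC and RC, with 1 point per library, a line at each group mean and open triangles for libraries at 0. In the panels other than KIF15 and KIFC1, TC lies lowest, PC next, then CC, with RC highest, and no points of 2 groups overlap. The share of all tested genes that separate in this way was not counted.

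The first set of genes builds the bipolar spindle. KIF11 (Eg5) crosslinks antiparallel microtubules and slides the poles apart. It is encoded at chr10:92574105-92655395 (hg38, plus strand). KIF11 was at 78.5, 96.1 and 79.6 CPM in CC, 9.46, 9.68 and 8.39 CPM in TC, 20.8, 24.6 and 25.7 CPM in PC, and 131, 144 and 138 CPM in RC. TC thus held 10.8% of the CC mean, PC 28.0% and RC 162%, and the groups did not overlap. Against CC, the log2 fold change was -3.21 ± 0.11 (SE) in TC (adjusted p = 2.6e-10), -1.84 ± 0.10 in PC (adjusted p = 1.1e-08) and 0.70 ± 0.10 in RC (adjusted p = 0.00022).

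KIF15 can keep poles apart when KIF11 is blocked, and KIFC1 is a minus-end-directed motor that bundles microtubules at the poles and clusters extra centrosomes. The KIF15 gene lies at chr3:44761721-44873376 (hg38, plus strand) and KIFC1 at chr6:33391823-33409896 (hg38, plus strand). KIF15 had 297, 49 and 163 counts in CC, 2, 2 and 2 counts in TC, 84, 115 and 12 counts in PC, and 577, 594 and 507 counts in RC. KIFC1 had 79, 523 and 16 counts in CC, 0, 0 and 4 counts in TC, 15, 6 and 3 counts in PC, and 33, 22 and 31 counts in RC. The libraries of one group differed by many times for both genes, and CC replicate 2 alone held 71.4% of all KIFC1 counts. Their biological coefficients of variation were 0.588 and 0.85, against 0.0844 to 0.158 for the other 8 kinesins.

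Both genes have additional numbered copies in the deposited table, 1 for KIF15 and 2 for KIFC1, which are entries named as the symbol followed by a number. These entries held between 0 and 20 counts per library. Of 1271 protein-coding symbols with a numbered copy, 29.1% passed the count filter, against 69.1% of 17834 without one. The median CC level was 0 CPM with a copy and 9.86 CPM without, and 2.63 and 30.4 CPM among those tested. The treatment of reads with several alignments was not stated, and its part in the KIF15 and KIFC1 values was not tested. Because of the low counts, ratios are given with an exact interval that covers counting error only. Pooled over libraries, KIF15 in TC was at 1.19% of CC (95% interval 0.433% to 2.60%), and KIFC1 in TC was at 0.651% of CC (0.177% to 1.67%). Both were called lower in TC (adjusted p = 0.00011 and 0.00062). In PC, the KIF15 libraries overlapped with CC and the gene was not called (adjusted p = 0.11), but without CC replicate 2 it was (log2 fold change -1.70, adjusted p = 0.027). In RC, KIF15 was at 291% of CC (263% to 322%) in pooled counts, and every RC library exceeded every CC library, but the test gave an adjusted p of 0.084. It became 0.03 without CC replicate 1 and 0.028 without PC replicate 3. KIFC1 was called lower in PC (adjusted p = 0.003), at 4.02% of CC (2.56% to 6.04%), although its highest PC library exceeded its lowest CC library. Without CC replicate 2 the fitted log2 fold change of KIFC1 moved from -7.18 to -5.15 in TC (adjusted p = 0.0015) and from -4.59 to -2.54 in PC (adjusted p = 0.022), beyond the counting intervals. It was also called lower in RC than in CC (adjusted p = 0.034), a call that was lost without CC replicate 2 (log2 fold change -0.94, adjusted p = 0.38) and without RC replicate 1, 2 or 3 (adjusted p of 0.07, 0.11 and 0.09).

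The second set acts on chromosomes and on microtubule ends. KIF4A is a chromokinesin that condenses chromosome arms and shortens midzone microtubules with PRC1. It is encoded at chrX:70290104-70420886 (hg38, plus strand). KIF4A was at 103, 128 and 94.4 CPM in CC, 6.04, 5.57 and 4.74 CPM in TC, 27.6, 32.0 and 33.2 CPM in PC, and 141, 152 and 150 CPM in RC. TC held 5.02% of the CC mean, the deepest fall among the 8 kinesins with steady counts. Compared to control cells, the log2 fold change was -4.32 ± 0.13 in TC (adjusted p = 1.6e-10), -1.81 ± 0.12 in PC (adjusted p = 4.4e-08) and 0.44 ± 0.11 in RC (adjusted p = 0.0087). The near-identical retrocopy KIF4B held 0 to 25 counts per library and did not pass the count filter.

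KIF18A dampens the swings of chromosomes at the metaphase plate by capping microtubule plus ends. Its locus is chr11:28020619-28108156 (hg38, minus strand). KIF18A was at 20.3, 28.1 and 20.7 CPM in CC, 1.87, 1.33 and 1.81 CPM in TC, 5.10, 6.52 and 6.85 CPM in PC, and 28.3, 31.2 and 32.9 CPM in RC. The lowest RC library was only just above the highest CC library, while TC and PC lay clear of CC. Set against CC, it had a log2 fold change of -3.78 ± 0.18 in TC (adjusted p = 3.7e-09), -1.90 ± 0.16 in PC (adjusted p = 5.1e-07) and 0.42 ± 0.15 in RC (adjusted p = 0.049).

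KIF2C (MCAK) does not walk but takes microtubule ends apart, and thereby corrects wrong kinetochore attachments. Its locus is chr1:44739818-44767767 (hg38, plus strand). KIF2C was at 184, 212 and 143 CPM in CC, 19.1, 16.7 and 15.4 CPM in TC, 34.9, 39.1 and 41.7 CPM in PC, and 285, 284 and 283 CPM in RC. It was the most abundant of the 10 per kb in CC, and the 4 groups did not overlap. The change on the log2 scale was -3.40 ± 0.14 in TC (adjusted p = 1.1e-09), -2.22 ± 0.13 in PC (adjusted p = 2.1e-08) and 0.66 ± 0.12 in RC (adjusted p = 0.0016).

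CENPE is a very long kinetochore motor that carries chromosomes to the spindle equator. The gene lies at chr4:103105349-103198445 (hg38, minus strand). CENPE was at 87.5, 103 and 70.8 CPM in CC, 6.63, 5.65 and 4.2 CPM in TC, 14.7, 19.2 and 20.3 CPM in PC, and 105, 120 and 144 CPM in RC. RC libraries spread more for CENPE than for its neighbours, and the lowest of them barely exceeded the highest CC library. The log2 fold change was -4.00 ± 0.21 in TC (adjusted p = 7.4e-09), -2.27 ± 0.19 in PC (adjusted p = 4.0e-07) and 0.50 ± 0.18 in RC (adjusted p = 0.043). The study measured genes of cell proliferation by RT-qPCR in such cells, but its text names no result for CENPE. The study also listed the genes regulated after 2 days of recovery, so that the directions of the kinesins here are not independent of what it reported.

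The third set serves the central spindle and cytokinesis. KIF23 (MKLP1) forms the centralspindlin complex with RACGAP1 and bundles midzone microtubules. It maps to chr15:69414246-69448427 (hg38, plus strand). KIF23 was at 76.1, 101 and 88.4 CPM in CC, 21.5, 21.1 and 21.1 CPM in TC, 32.8, 36.4 and 37.6 CPM in PC, and 172, 181 and 184 CPM in RC. TC still held 24.0% of the CC mean, the mildest fall of the 10 genes. Against CC, the log2 fold change was -2.06 ± 0.10 in TC (adjusted p = 2.9e-09), -1.31 ± 0.09 in PC (adjusted p = 9.4e-08) and 1.01 ± 0.09 in RC (adjusted p = 2.3e-05).

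KIF20A (MKLP2) brings the chromosomal passenger complex with AURKB to the midzone. It maps to chr5:138178719-138187723 (hg38, plus strand). KIF20A was at 107, 138 and 86.9 CPM in CC, 10.5, 8.02 and 6.43 CPM in TC, 40.2, 46.6 and 52.0 CPM in PC, and 215, 214 and 215 CPM in RC. Its TC and CC libraries spread by about the same share of their means (24.6% and 23.5% coefficients of variation), while RC libraries were nearly equal (0.275%). Compared to control cells, the log2 fold change was -3.74 ± 0.20 in TC (adjusted p = 8.7e-09), -1.26 ± 0.18 in PC (adjusted p = 4.0e-05) and 0.96 ± 0.17 in RC (adjusted p = 0.0012).

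KIF14 holds citron kinase (CIT) at the midbody. The gene lies at chr1:200551497-200620751 (hg38, minus strand). KIF14 was at 53.5, 62.4 and 50.4 CPM in CC, 3.45, 3.09 and 3.51 CPM in TC, 14.7, 18.3 and 18.5 CPM in PC, and 90.3, 94.1 and 96.0 CPM in RC. The 4 groups did not overlap. Set against CC, it had a log2 fold change of -4.05 ± 0.12 in TC (adjusted p = 1.1e-10), -1.69 ± 0.10 in PC (adjusted p = 2.7e-08) and 0.75 ± 0.10 in RC (adjusted p = 0.00016).

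Counted over the set, 10 of 10 kinesins were called lower in TC, against 34.7% of all tested genes, and 10 of 10 were lower beyond 1.5-fold, against 19.3%. The share of tested genes called higher was 33.2%, and it held none of the 10 in edgeR, at an unadjusted p under 0.05 either, or in DESeq2. The median log2 fold change of the 10 was -3.89, and that of all tested genes was -0.02. It was -3.76 without KIF15 and KIFC1.

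After 2 days without drug, 9 of 10 kinesins were still lower in PC than in CC, against 35.9% of all tested genes, and the same 9 were lower beyond 1.5-fold, against 19.9%. The share of tested genes called higher was again 33.2%, with none of the 10 among them in edgeR, at an unadjusted p under 0.05 either, or in DESeq2. The median log2 fold change was -1.82 for the 10 and -0.04 for all tested genes. The exception was KIF15.

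After 9 days without drug, 8 of 10 kinesins were called higher in RC than in CC, against 18.2% of all tested genes. KIFC1 was called lower, against 19.1% of tested genes called in that direction, and KIF15 was not called. The rise was small: the median over the 10 was 0.68 on the log2 scale, and that over all tested genes was 0.00. KIF23 alone was higher beyond 1.5-fold, against 1.35% of tested genes, and without CC replicate 2 the number of kinesins past that bound was 3. The calls of KIF18A and CENPE sat near the threshold and were lost in 11 and 7 of the 19 alternative analyses, whereas the calls of the other 6 held in each. For KIF18A these included leaving out CC replicate 1 or 3, TC replicate 1 or 3, PC replicate 2 or 3, or any RC library (adjusted p from 0.05 to 0.16). For CENPE they included leaving out CC replicate 1 or 3, TC replicate 2, PC replicate 2, or RC replicate 2 or 3 (adjusted p from 0.057 to 0.16).

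**Figure D3:**
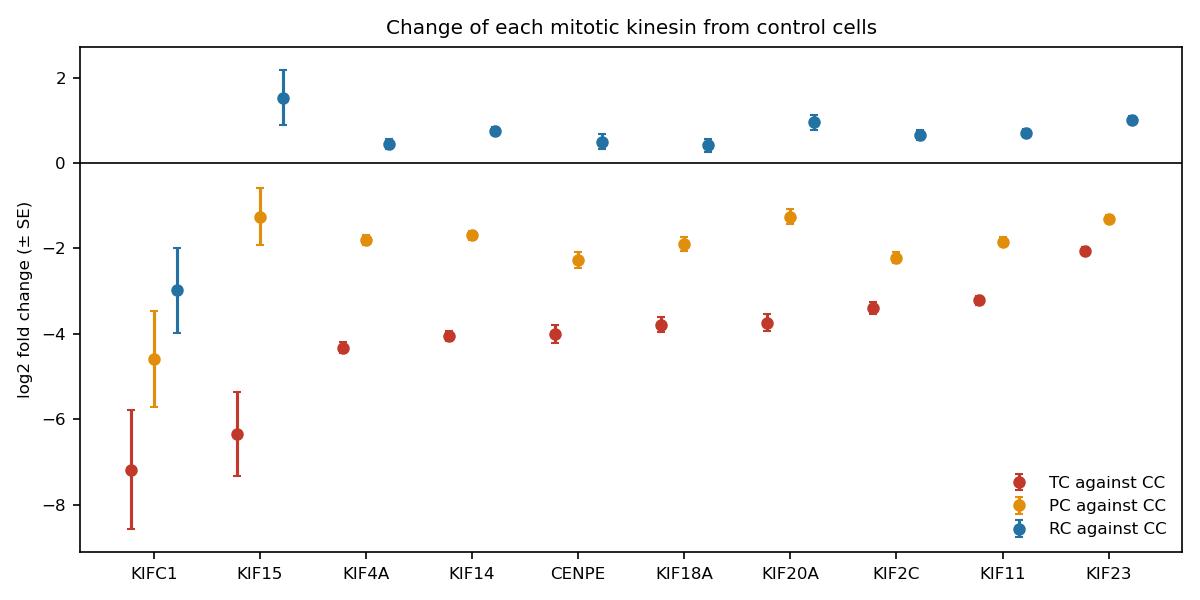
Log2 fold change ± SE of each kinesin in TC, PC and RC against the shared CC libraries, ordered by the change in TC. KIF23 shows the mildest fall in TC (-2.06), KIFC1 and KIF15, with low counts and unequal replicates, have the longest bars, and RC values lie above 0 except for KIFC1.

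The kinesins did not fall by equal amounts. Neighbours in the order of the TC changes were compared by the ratio of both genes in each library, and a step was called separated where the 3 TC ratios lay beyond the 3 CC ratios. By this measure the steps from KIF4A to KIF14, from KIF20A to KIF2C and from KIF11 to KIF23 were separated. The order came from the same libraries, which fixed the direction of each step. How often 3 ratios lie beyond 3 others by sampling alone was not tested. The step from KIF11 to KIF23 was the widest (1.15 on the log2 scale). KIF14, CENPE, KIF18A and KIF20A followed each other with no separated step, and neither was the step from KIF2C to KIF11.

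Between TC and PC, in the 2 days after drug removal, 9 of 10 kinesins were called higher, against 12.2% of all tested genes, and 8 of 10 were higher beyond 1.5-fold, against 2.33%. The share of tested genes called lower was 12.5%, with none of the 10 among them in edgeR, at an unadjusted p under 0.05 either, or in DESeq2. The log2 fold change of PC against TC was largest for KIF4A (2.51 ± 0.13, adjusted p = 2.3e-07), KIF20A (2.48 ± 0.19, adjusted p = 4.4e-06) and KIF14 (2.36 ± 0.11, adjusted p = 1.8e-07) among the 8 with steady counts. It was smallest for KIF2C (1.18 ± 0.13, adjusted p = 6.5e-05) and KIF23 (0.75 ± 0.09, adjusted p = 0.00015). KIFC1 was not called (adjusted p = 0.28). As a share of the distance between the TC and CC means, PC had regained 37.1% for KIF20A, 26.5% for KIF14, 24.7% for KIF4A and 21.3% for KIF23. The shares were 21.0% for KIF18A, 19.2% for KIF11, 15.4% for CENPE and 13.2% for KIF2C. Among these 8, the kinetochore motor CENPE and the depolymerase KIF2C had regained the smallest shares. The shares were 41.2% for KIF15 and 3.69% for KIFC1, both from means over unequal replicates.

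Between PC and RC, 9 of 10 kinesins were called higher, against 35.7% of all tested genes, and the same number were higher beyond 1.5-fold, against 20.2%. The share called lower was 34.2%, with none of the 10 among them by the same 3 criteria. KIF2C (log2 fold change 2.88 ± 0.13) and CENPE (2.76 ± 0.19) rose most among the 8, and KIF20A (2.22 ± 0.18) rose least. The range over the 8 was narrower for this step, from 2.22 to 2.88, than for the step from TC to PC, from 0.75 to 2.51.

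The other kinesins with a part in mitosis numbered 6, of which 4 were tested. KIF18B, which shortens astral microtubules, fell in TC with a log2 fold change of -3.70 ± 0.10, and its level in PC was -1.19 ± 0.08 from CC. KIF20B, a midbody kinesin, was at -2.78 ± 0.12 in TC, and KIF22, a chromokinesin, at -2.25 ± 0.09. KIF2A, a depolymerase that also acts outside mitosis, was at -0.68 ± 0.07, from 94.8 to 111 CPM in CC to 60.5 to 64.2 CPM in TC in its lowest and highest libraries. The 4 were called lower in both TC and PC, and KIF2A was not beyond 1.5-fold in either. In RC, KIF18B, KIF20B and KIF22 were called higher and KIF2A was not (adjusted p = 0.078). Of all tested genes, 34.7% were called lower in TC, 35.9% lower in PC and 18.2% higher in RC. KIF2B had no counts in any library.

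Kinesins of transport, cilia and signalling numbered 28, of which 23 were tested. In TC, 9 were called lower and 8 higher, and the median was -0.07 on the log2 scale. In PC, 11 were lower and 7 higher (median -0.15), and in RC, 2 were lower and 9 higher (median 0.17). Over all tested genes, the shares called lower and higher were 34.7% and 33.2% for TC. The corresponding shares were 35.9% and 33.2% for PC, then 19.1% and 18.2% for RC. The 9 of 23 called higher for RC thus made up a larger share than among all tested genes. The 2 called lower there made up a smaller share. The extremes in TC were KIF17 (-2.44 ± 0.64) and KIF26B (3.76 ± 0.75), and neither exceeded 1.43 CPM in any library. The medians of the 10 mitotic kinesins in the same comparisons were -3.89, -1.82 and 0.68. The lists were not tested against each other.

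Most partners of the mitotic kinesins were also lower in TC and PC. Of 16 partners tested, 15 were called lower in TC and 15 in PC, and 14 were called higher in RC. The shares of all tested genes called in these directions were 34.7%, 35.9% and 18.2%. The medians were -3.44, -1.62 and 0.72. AURKB, the kinase of the passenger complex, was lowest in TC (-4.56 ± 0.17), and NUMA1, a spindle pole protein that is also a nuclear protein in interphase, was the exception (0.49 ± 0.07 in TC).

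Of 10 regulators of G2/M promoters tested, 6 were called lower and 2 higher in TC, with a median of -0.27, against 34.7% lower and 33.2% higher among all tested genes. FOXM1, which drives G2/M transcription together with MuvB, was at 62.7, 67.9 and 60.3 CPM in CC, 9.15, 7.74 and 7.27 CPM in TC, 43.5, 48.4 and 50.6 CPM in PC, and 125, 120 and 117 CPM in RC. It was lower in TC by a log2 fold change of -2.99 ± 0.09, and the NF-Y subunit NFYA was at 0.39 ± 0.09. MYBL2 (B-MYB), named here like LIN9 after its values were seen, was at -2.90 ± 0.13 in TC. In PC, FOXM1 stood at 74.7% of the CC mean and MYBL2 at 67.4%, while the 8 kinesins with steady counts stood between 20.8% and 41.8%. The ratio of each of these 8 to FOXM1 was lower in the 3 PC libraries than in the 3 CC libraries for 8 of 8, by 0.82 to 1.84 on the log2 scale, and the same held for MYBL2, by 0.68 to 1.70. This comparison was also chosen after the values were seen, so that it restates the levels above and is no separate result. The 8 ratios share the same FOXM1 or MYBL2 value in each library. Of all tested genes, 34.2% had a lower log2 fold change than FOXM1 in PC against CC, and 29% a lower one than MYBL2. How many of them had ratios that separated in the same way was not counted. The MuvB subunit LIN9, in the same list, stood at 42.7% of the CC mean in PC, near KIF20A at 41.8%.

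Tubulins are the subunits of the tracks on which the motors run. Of 12 tested, 3 were called lower and 6 higher in TC, with a median of 0.43, against 34.7% lower and 33.2% higher among all tested genes. TUBB3 was highest at 2.11 ± 0.14. TUBB was lowest at -1.75 ± 0.57, but it was listed at no more than 0.691 CPM and has 7 numbered copies in the table.

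**Figure D4:**
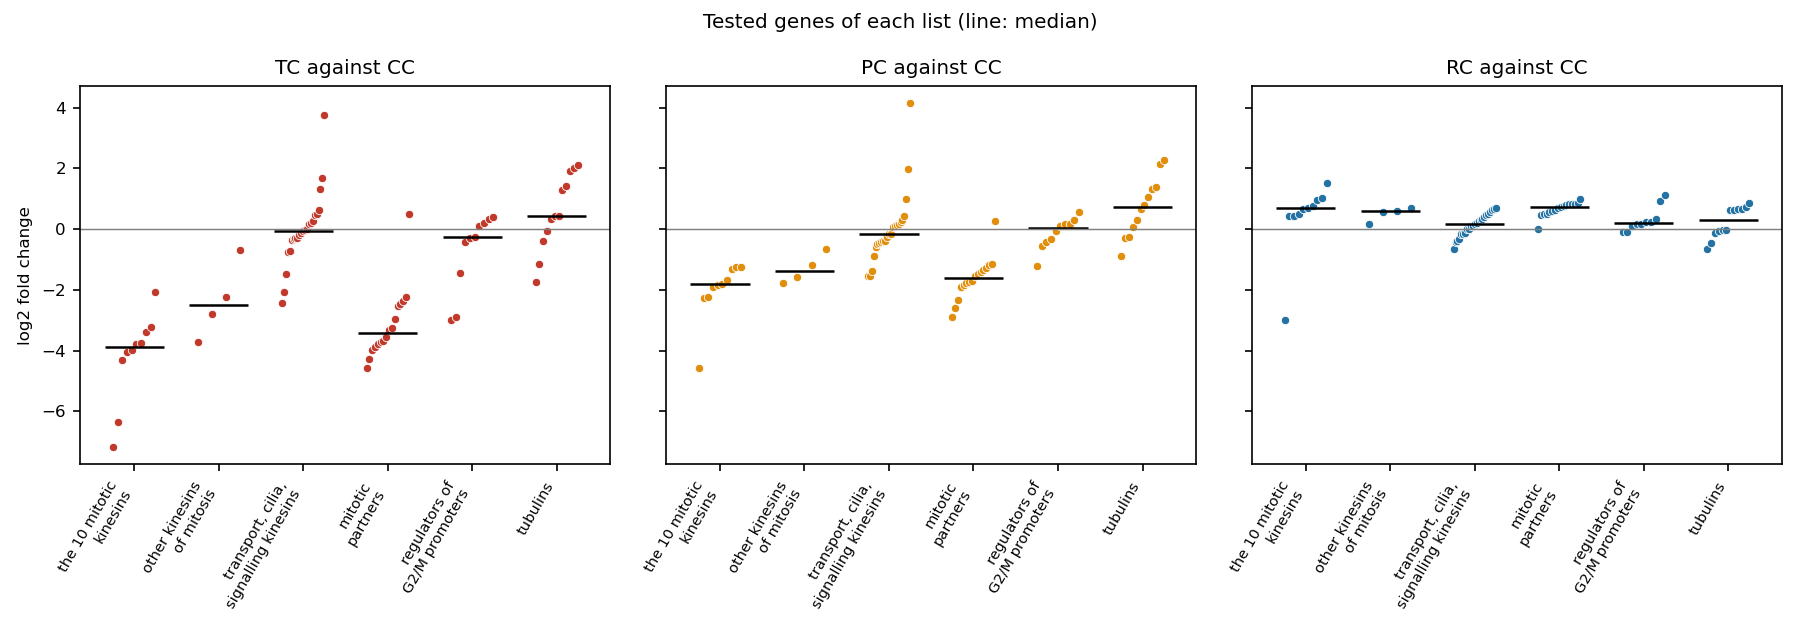
Log2 fold change of every tested gene of each list in TC, PC and RC against the shared CC libraries, with 1 point per gene and a line at each list's median. The mitotic kinesins and their partners lie below 0 in TC and PC apart from NUMA1, and the transport kinesins and tubulins spread on both sides of 0.

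Among genes outside the set, 11906 with a mean scaled count of at least 100 were ranked by likeness to the kinesins. The measure was the root mean square difference, over the 12 libraries, between the log2 CPM of a gene centred on its own mean and the median centred profile of the 10 kinesins. The nearest were CCNB2 (0.15), a mitotic cyclin, LMNB1 (0.15), a nuclear lamina protein, PRC1 (0.17), the midzone crosslinker that works with KIF4A, PRR11 (0.17) and APOBEC3B (0.18). Their log2 fold changes in TC lay between -4.17 (PRR11) and -3.55 (PRC1). By the same measure KIF18A lay at 0.13, and the other kinesins ran from 0.20 (KIF14) to 1.38 (KIFC1). The named genes were thus nearer to the median profile than any kinesin but KIF18A.

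The study dealt with the codon and amino acid makeup of the genes that MAPKi lowers. In the canonical coding sequences of GENCODE v44, codons for glutamate made up a larger share than the median of 12707 tested genes in 10 of the 10 kinesins, and codons for lysine and for asparagine did so in 9 of 10 each. Codons for aspartate did so in 1 of 10. For the 4 amino acids together the median share was 27.5% in the kinesins and 21.5% in the tested genes. CENPE was highest at 36.7%, and KIFC1 was lowest at 19.3%. Of the glutamate codons, a median of 63.1% were GAA in the kinesins, against 42.2% in the tested genes. These shares come from the reference alone and were not tested.

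**Figure D5:**
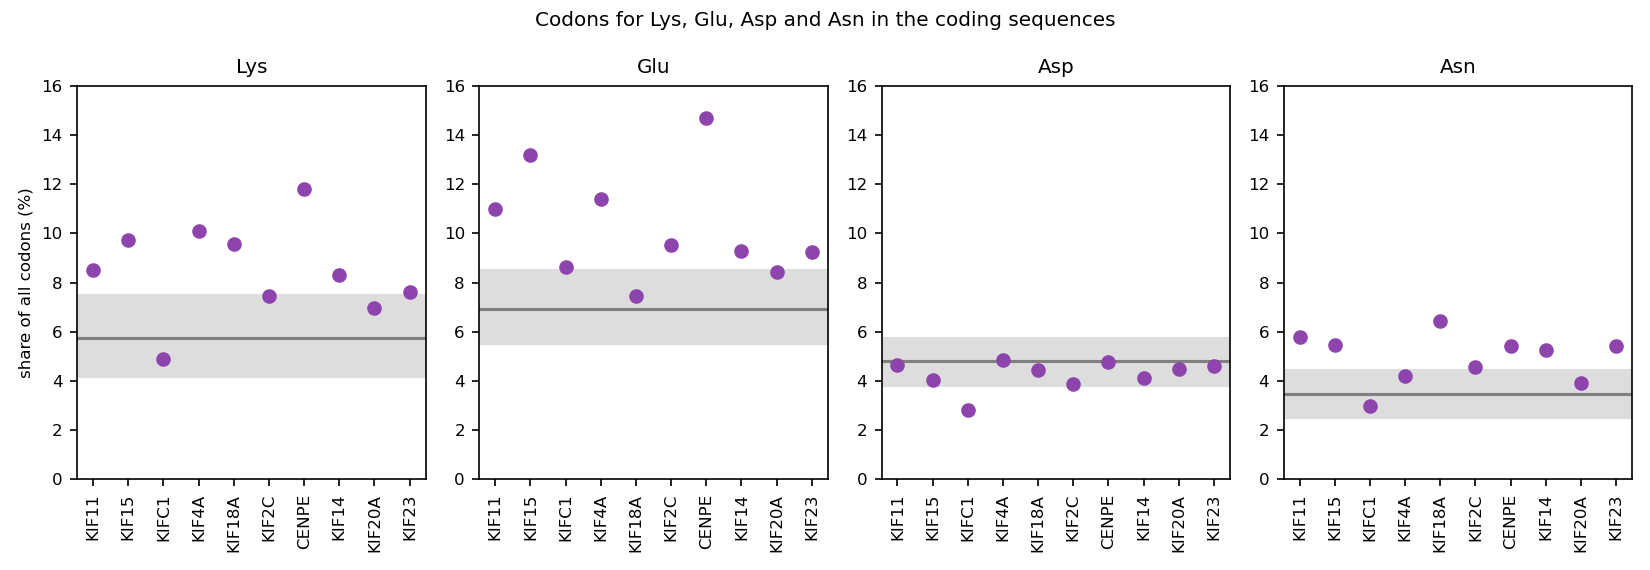
Share of codons for Lys, Glu, Asp and Asn in the coding sequence of each kinesin, in percent of all codons, with the median (line) and the middle 50% (band) of the tested genes with a coding sequence. The 10 points for Glu lie above the median line, and the points for Asp lie at or under it apart from 1.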

How the data were processed

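The authors deposited raw read counts per gene for the 12 libraries, and these counts are not normalized. Per the labels and the methods, reads were trimmed with fastp 0.20.1, aligned to GRCh38.p13 with HISAT2 2.2.1 and counted on exons of the NCBI annotation with htseq-count (HTSeq 0.13.5). Strandedness and the treatment of reads with several alignments were not stated, so that reads from a gene and an antisense partner cannot be told apart.

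From these counts, genes with a mean scaled count of at least 10 were tested (15916 of 44659). A quasi-likelihood fit with 1 coefficient for each group was made on the 12 libraries together (edgeR 4.0.16, R 4.3.3), with TMM factors from 0.965 to 1.02 and 8 residual degrees of freedom. The threshold was 0.05 for p-values of the two-sided glmQLFTest after Benjamini-Hochberg adjustment over all tested genes, and also for glmTreat with a 1.5-fold bound. SE were derived from the F statistic. The script was tested on simulated data.

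The kinesins and the gene lists were chosen with earlier results of these data known. Named genes were every kinesin, each list's extremes in TC, all genes of lists of at most 6 tested genes, the 5 nearest profiles, SOX10, MLANA, DCT, S100B, KRT14 and HBB among the markers, and DUSP6, SPRY4 and ETV4. No 2 libraries of a group agreed within sampling noise. Alternatives were RLE size factors, library totals, a summed count of at least 2, DESeq2 1.42.0, only the 2 groups compared, replicate numbers as a block, numbered copies added, and each library left out.

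Gene coordinates, lengths and coding sequences came from GENCODE v44 (hg38), matched by symbol, and promoter sequences from RefSeq (GRCh38.p14), where 10 of 10 kinesins matched.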

Additional observations from a re-analysis of the deposited data

How the results depend on the processing

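Of 760 fold changes of the 8 kinesins other than KIF15 and KIFC1 under 19 alternatives, 742 kept their direction and their side of the threshold, 18 kept their direction but were no longer called, and 0 reversed. The 18 concerned KIF18A and CENPE in RC. The number of kinesins called lower in RC was 1 (KIFC1). It was 0 with only the 2 groups compared and 0 with the replicate block, and ran from 0 to 1 when 1 library was left out. The number lower in RC beyond 1.5-fold was 0 and ran from 0 to 1, and the number higher beyond 1.5-fold was 1 and ran from 1 to 3 without CC replicate 2. Over all genes, the numbers beyond 1.5-fold in RC were 401 lower, with a range of 224 to 523, and 215 higher, with a range of 117 to 378. Genes lower in PC than in TC numbered 1992, with a range of 1259 to 2469. The median log2 fold change of the 10 kinesins in PC against TC was 2.12. It was 1.88 with only the 2 groups compared, 1.80 with numbered copies added, and between 1.93 and 2.13 when 1 library was left out. KIFC1 became higher in RC than in PC with only the 2 groups compared (log2 fold change 1.60, adjusted p = 0.039). The causes of these changes were not tested.

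Replicate numbers did not meet the criterion for pairing, a correlation over 0.1 in every pair. The correlation of residuals between libraries with the same number ran from -0.038 to 0.157. It exceeded 0.1 in 2 of 18 pairs, both between TC and PC, where the 3 same-number values were 0.157, 0.068 and 0.126. Between libraries with other numbers it ran from -0.123 to 0.042 over 36 pairs. Among CC, TC and PC, the same-number values were all positive (0.009 to 0.157), so that a weak pairing there is not excluded. With the replicate block, KIF18A (adjusted p = 0.051) and CENPE (adjusted p = 0.052) were no longer called in RC. No group of 3 can be examined for an outlying library, and low counts limit what can be said of KIF15 and KIFC1.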
